A study of Mus musculus with 4 samples.

Results

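WT CD24+ emergency progenitors (EPs) are described here from the 2 libraries labelled WT, of 4 in the series. They were chosen by that genotype label, and the libraries of the conditional knockout enter no value below. The question was what these cells expressed at baseline: which genes were most abundant, which lineage the transcripts belonged to, and which surface receptors and transcription factors (TFs) were present. The labels say WT only. In its tumor comparison the paper names Topbp1 fl/fl littermates as WT, which carry the floxed allele without the CD11c-cre transgene. Whether the mice of these 2 libraries carried the floxed allele is not stated. Mice were 7 to 10 weeks old, were given Flt3L-Ig i.p. at 10 μg a dose (days 0 and 3), and splenic EPs were collected by sorting at day 9. EPs were gated as CD11c+CD117+ cells, and the labels add CD24 but do not say whether the XCR1- or the XCR1+ fraction was taken. This gate is known to hold progenitors together with differentiated cDCs. Nothing states whether a library came from 1 mouse or a pool, so the spread between the 2 libraries may be technical. With 1 group of 2 libraries no test was run, and values are given with their spread.

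Flt3L is the growth factor that drives dendritic cell development through its receptor FLT3. When it is given in excess, CD11c+CD117+ progenitors accumulate and give rise mainly to type 1 conventional dendritic cells (cDC1s), which take up dead cells and present their antigens to CD8+ T cells. The cDC1 fate depends on IRF8 together with BATF3, ID2 restrains E proteins such as TCF4 that favour plasmacytoid dendritic cells (pDCs), and ZBTB46 marks conventional dendritic cells (cDCs).

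Read counts of all transcripts that share a gene symbol were added up and expressed as counts per 1000000 (CPM) of the library total, which was 14561583 in replicate 1 and 15193831 in replicate 2. CPM values are compared between the libraries of a gene only. Levels of different genes are compared on a length-scaled level, the count per kb of the longest coding sequence, scaled to a sum of 1000000 over the 20714 genes with a coding length, and ranks are on that scale. Where genes are put in order, the order also held per kb of the longest transcript unless said otherwise. The libraries differed in 3.86% against 2.21% of counts on *Gm26917* and 1.32% against 0.727% on the mitochondrial rRNAs. *Xist*, the RNA of the inactive X chromosome, was at 740.1 and 827 CPM, and the Y-linked *Ddx3y*, *Kdm5d* and *Eif2s3y* had 0 counts in both libraries.

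The 6 genes that mark these cells were all present. *Cd24a*, the surface antigen of the sort, was at 944 and 921 CPM in replicates 1 and 2, a mean of 933 ± 16.2 CPM (SD, n = 2). *Irf8*, the TF on which the cDC1 lineage depends, was at 2373 and 2501 CPM, a mean of 2437 ± 90.5 CPM. *Id2*, which blocks E proteins, was at 614 and 597 CPM, a mean of 606 ± 11.8 CPM. *Flt3*, the receptor for the injected ligand, was at 697 and 695 CPM and differed less between the libraries than any other of the 6. *Zbtb46*, the cDC TF, was at 207 and 213 CPM. *Batf3*, the AP-1 family partner of IRF8, was at 83.5 and 118 CPM, 1.41-fold higher in replicate 2 (95% interval 1.31 to 1.52, exact binomial, counting error only). The other 5 markers differed by less than this between the libraries. On the length-scaled level, *Cd24a* had 3459 ± 149 units (rank 25) and *Irf8* 2087 ± 23.7 units (rank 53), but this pair changed places per kb of transcript. *Id2* followed with 1420.0 ± 64.3 units at rank 100. *Batf3* stood at rank 476, *Flt3* at 593 and *Zbtb46*, the lowest of the 6 on both length scales, at 1244, with *Batf3* and *Flt3* in the opposite order per kb of transcript.

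The RNA of the genes behind the sort gate followed the gate. *Itgax*, which encodes CD11c, was at 603 and 611 CPM, and *Kit*, which encodes CD117, at 468 and 473 CPM. *Ptprc*, the pan-leukocyte antigen CD45, was at 1227 and 1167 CPM. The T cell gene *Cd3e* and the NK cell gene *Klrb1c* were low, at 0.481 and 0.329 CPM and at 1.72 and 0.921 CPM. Markers of other lineages, some of them far higher, are given below. *Xcr1*, the chemokine receptor that marks cDC1s and divides CD24+ EPs into a precursor and a mature fraction, was abundant, at 713 and 749 CPM, rank 187. In bulk samples such as these, fewer cells of a type and less RNA per cell cannot be told apart.

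**Figure D1:**
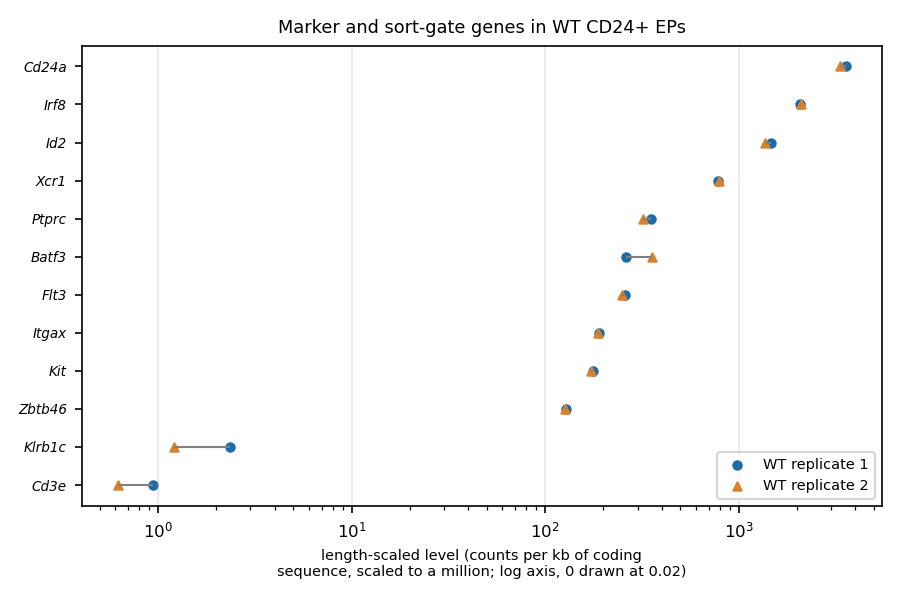
Length-scaled level (log axis) of the 6 marker genes and of other genes of the sort gate, with circles for WT replicate 1, triangles for WT replicate 2 and a line joining the 2 libraries. *Cd24a* and *Irf8* lie above 2000 units in both libraries, and *Cd3e* and *Klrb1c* lie below 5.

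Of all 40213 symbols, 28.2% (11342) reached 1 CPM in both libraries, and of the 20714 genes with a coding length 50.5% (10454) did. Every count of list members at 1 CPM is to be read beside that 50.5%, and lists of several unlike kinds passed in full. The 10 most abundant genes held 11.7% of counts in replicate 1 and 10.2% in replicate 2, and 567 and 601 genes, respectively, held 50% of the counts. Cytosolic ribosomal proteins took 6.36% and 6.58%, mitochondrially encoded mRNAs 1.97% and 2.37%, and histones 0.143% and 0.143%.

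Leaving out ribosomal and mitochondrially encoded genes, the 20 genes highest on the length-scaled level were led by the actin-binding peptide *Tmsb4x* and by the machinery of MHC class II presentation, though per kb of transcript *Cd74*, *H2-Ab1* and *Cst3* lay above *Tmsb4x*. *Cd74*, the invariant chain that guides class II molecules to the endosome, was at 21967 units, rank 2 of this scale. *H2-Ab1*, *H2-Aa* and *H2-Eb1*, the class II chains themselves, were at 12167 units, 8669.5 units and 6951 units, with *H2-Aa* and *H2-Eb1* in the opposite order per kb of transcript. *Cst3*, the cystatin that cDC1s make in large amounts, was at 15739.6 units. *B2m*, the light chain of MHC class I, was at 5918 units. The 20 also included the cytoskeletal genes *Tmsb10*, *Actb* and *Actg1*, the elongation factor *Eef1a1*, *Tpt1* and *Ptma*, the GPI-anchored surface antigens *Ly6e*, *Cd52* and *Cd24a*, and the lysosomal genes *Psap*, *Gm2a* and *Ppt1*. Of the 20, 16 were also among the 20 highest per kb of transcript.

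Of the marker lists for cell types, the cDC1 list had the highest median level. Of its 20 genes, 19 reached 1 CPM in both libraries, against 50.5% of all genes with a coding length, and 18 lay above the median length-scaled level of expressed genes (23.4 units), as did 25.2% of all genes with a coding length. The list's median was 457 units and its summed level 20715 CPM in replicate 1 and 21106 in replicate 2. *Ppt1*, a lysosomal thioesterase, was at 3049.8 and 3093 CPM, and *Naaa*, a lysosomal amidase, at 2035 and 2029.8 CPM. *Wdfy4*, a BEACH-domain protein needed for cross-presentation, was at 3750.4 and 3655 CPM. *Clec9a*, the receptor for actin exposed by dead cells, was at 512 and 561 CPM. These values lay close together in the 2 libraries. *Ifi205* was at 1088 and 1105 CPM, *Rab7b*, a small GTPase of late endosomes, at 761 and 833 CPM, and *Btla*, an inhibitory receptor, at 414 and 414 CPM. *Snx22*, a sorting nexin, was at 291 and 303 CPM and *Gcsam* at 330.3 and 326 CPM. *Cadm1*, an adhesion molecule of cDC1s, was at 315 and 353 CPM, *Cd36*, a scavenger receptor, at 213 and 198 CPM, and *Ly75*, the uptake receptor DEC-205, at 159 and 155 CPM.

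The lower part of the list held other cDC1 surface genes. *Cd8a*, the coreceptor chain on lymphoid-organ cDC1s, was at 174 and 205 CPM and higher in replicate 2. *Cxcr3*, a chemokine receptor, was at 66.7 and 57.9 CPM, and *Itgae*, which encodes the CD103 integrin of tissue cDC1s, at 42.5 and 54.2 CPM, rank 6482, below every other expressed member on both length scales. *Plet1* was the only list member below 1 CPM, with 0 and 2 counts. On the length-scaled level *Cst3*, *Ppt1* and *Naaa* led the list in that order, at 15739.6, 3646 and 2039.6 units. *Clec9a* lay at 737, *Wdfy4* at 423 and *Cd8a* at 278 units, with *Wdfy4* above *Clec9a* per kb of transcript, while *Cd8a* and *Cadm1*, *Tlr11* and *Tlr3*, and *Tlr3* and *Cd36* overlapped between libraries and could not be ordered.

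Markers of cDC2s, the other conventional subset, lay mostly below the median of expressed genes. None of the 14 cDC2 genes in the files reached 100 CPM in both libraries, the list's median was 5.82 units and its sum 143 and 169 CPM, although 11 passed 1 CPM. *Sirpa*, the SIRPα receptor of cDC2s, was at 24.7 and 31.9 CPM, *Cd209a*, a C-type lectin, at 17.5 and 23.8 CPM, *Cd7*, highest of the list, at 21.2 and 25.0 CPM, and *Itgam*, which encodes CD11b, at 20.9 and 16.7 CPM. *Esam*, *Clec4a4* and *Cd209d* did not reach 1 CPM in both libraries. In 12 of the 13 cDC2 genes with at least 20 counts over both libraries the level was higher in replicate 2, by a median log2 ratio of 0.37, against 0.04 over all expressed genes. The share of all genes that were higher in replicate 2 was not counted. Some of these cDC2 genes had few counts, such as *Clec4a3* with 43 and 70.

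In the pDC list the defining genes were low and a few shared genes were not. *Siglech*, which defines pDCs, was at 4.88 and 7.90 CPM, *Ccr9* at 19.9 and 14.5 CPM, and *Cox6a2* and *Klk1* had at most 3 counts in a library. *Pld4*, an endosomal exonuclease, was at 461 and 503 CPM, and *Tlr9*, the sensor of CpG DNA, at 141 and 147 CPM, and both are also known in cDCs. *Bst2*, the pDC surface antigen that interferon induces in many cells, was at 63.9 and 61.7 CPM. Of 16 genes 12 passed 1 CPM in both libraries, against 50.5% of all genes with a coding length. The length-scaled median of the 16 was 8.74 units.

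**Figure D2:**
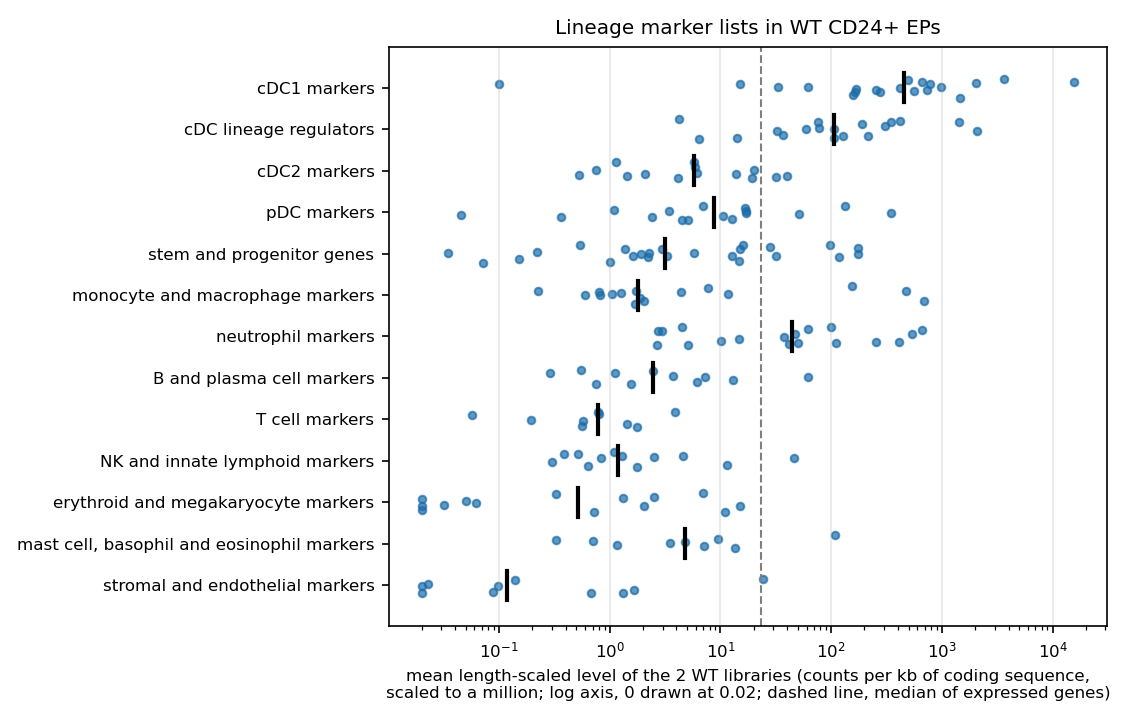
Mean length-scaled level (log axis) of each gene in 13 lineage lists, one point per gene, with a black bar at each list's median and a dashed line at the median of expressed genes (23.4 units). The cDC1 list (457 units) and the cDC regulators (106 units) have their medians above the line, as does the neutrophil list (44.2 units), and the other 10 lists have theirs below it.

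A list of 24 stem and progenitor genes was set beside the name progenitor. It holds *Kit*, which encodes CD117 of the sort gate, so the sort fixed the presence of that gene. *Ly6a*, the interferon-inducible antigen Sca-1, *Kit* and *Lmo2*, a partner of haematopoietic TFs, were the list's highest members, at 175, 174 and 117 length-scaled units. *Ly6a* and *Kit* overlapped between libraries, and per kb of transcript *Kit* lay above *Ly6a*. Their CPM values were 58.1 and 71.6 CPM for *Ly6a* and 73.1 and 74.4 CPM for *Lmo2*, beside those of *Kit* above. *Msi2*, an RNA-binding protein of stem cells, was at 91.3 and 95.2 CPM and 97.9 units, and every other member had 31.7 units or fewer by coding length. *Cd34*, the stem cell antigen, was at 15.4 and 15.7 CPM, *Gata2*, a TF of early progenitors, at 3.09 and 2.90 CPM, and *Meis1*, a homeobox TF of stem cells, at 4.60 and 3.82 CPM. *Myb*, the TF of cycling progenitors, was at 37.4 and 29.4 CPM, *Myc* at 36.5 and 33.0 CPM and *Cebpa*, needed for granulocyte-monocyte progenitors, at 31.2 and 31.5 CPM. *Gata1*, *Slamf1*, *Tal1*, *Mecom*, *Hlf*, *Egfl7* and *Ctla2a* did not reach 1 CPM in both libraries. *Cd93*, an early progenitor antigen, was at 13.3 and 7.17 CPM, 1.86-fold higher in replicate 1 (1.46 to 2.37). The list's median was 3.14 units, below the 23.4 of expressed genes. Of the 24 genes 6, *Kit* among them, lay above that median, a share near the 25.2% of all genes with a coding length.

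Of the lists for cells outside the dendritic lineage, that of neutrophils had the highest median, 44.2 units. Of its 18 genes, 17 passed 1 CPM in both libraries, against 50.5% of all genes with a coding length. Above the median of expressed genes lay 11 of the 18, against 25.2% of all genes with a coding length. The summed level was 1598 CPM in replicate 1 and 1342 in replicate 2. *Mpo*, the myeloperoxidase of primary granules, was at 581 and 421 CPM, 1.38-fold higher in replicate 1 (1.34 to 1.43). *Elane*, *Ctsg* and *Prtn3*, serine proteases of the same granules, were 1.46, 1.75 and 1.26-fold higher in replicate 1. Over the list, 15 of 18 genes were higher in replicate 1, by a median log2 ratio of -0.19 (replicate 2 over 1), against 0.04 over all expressed genes. The share of all genes that were higher in either library was not counted. *Ngp* was at 244 and 247 CPM, *Ltf*, which encodes lactoferrin, at 99.3 and 97.0 CPM, and *S100a8* and *S100a9*, the calprotectin pair, at 103 and 99.8 CPM and 215 and 198 CPM. *Camp*, which encodes cathelicidin, was at 50.9 and 44.0 CPM, *Chil3*, a chitinase-like protein, at 44.4 and 37.3 CPM, *Fcnb*, a ficolin, at 10.0 and 7.44 CPM, and the collagenase *Mmp8* at 5.36 and 6.25 CPM. The surface markers of neutrophils were lower than these granule genes on the length-scaled level, with *Ly6g* at 1.10 and 0.856 CPM (2.66 units) and *Cxcr2* at 3.09 and 2.76 CPM (2.96 units). The part of this RNA in other results was not tested.

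In the monocyte and macrophage list 11 of 16 genes passed 1 CPM in both libraries, against 50.5% of all genes with a coding length. Genes that define macrophages were low. *Adgre1*, which encodes F4/80, was at 4.12 and 4.54 CPM, *Fcgr1* at 1.17 and 1.18 CPM and *C1qa* at 1.03 and 1.32 CPM. The 3 highest members were *Lyz2*, lysozyme, at 302 and 256 CPM, *Ccr2*, a chemokine receptor that dendritic cell precursors share with monocytes, at 496 and 483 CPM, and *Ly6c2*, of inflammatory monocytes, at 57.0 and 53.9 CPM. Of 9 T cell genes only *Cd5* passed 1 CPM, at 6.59 and 3.95 CPM. The B and plasma cell list summed to 71.7 and 50.7 CPM, with the joining chain *Jchain* at 34.5 and 19.0 CPM. The NK and innate lymphoid list was led by *Klrd1* at 24.1 and 26.2 CPM, and its sum was 45.2 and 44.1 CPM. *Prg2*, the eosinophil major basic protein, led the mast cell, basophil and eosinophil list at 71.7 and 61.7 CPM, and *Siglecf* was at 1.30 and 0.921 CPM. Erythroid and megakaryocyte genes summed to 21.8 and 18.5 CPM with *Ppbp* and *Gp9* at 0 in both libraries. Stromal and endothelial genes summed to 58.4 and 59.1 CPM, most of it from *Pecam1* at 49.0 and 48.5 CPM, which leukocytes also make.

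All 18 cDC lineage regulators passed 1 CPM in both libraries, against 50.5% of all genes with a coding length. After *Irf8* and *Id2*, at 2087 and 1420.0 length-scaled units, came *Cbfa2t3*, the corepressor ETO2, at 422 units, with 672 and 769 CPM. *Spi1*, which encodes the ETS factor PU.1 that pairs with IRF8 on DNA, was at 242 and 275 CPM and 345 units, its libraries overlapped those of *Batf3* on the length-scaled level, and per kb of transcript it lay above *Cbfa2t3*. *Etv6*, an ETS repressor, was at 289 and 279.9 CPM, and *Ikzf1*, which encodes Ikaros, at 286 and 278 CPM. *Bcl6*, a repressor needed for cDC1s, was at 200.5 and 212 CPM, *Zfp366*, which encodes DC-SCRIPT, at 221 and 212 CPM, and *Bcl11a*, needed for early dendritic progenitors, at 178 and 179.8 CPM. These mid-level regulators lay between 77.8 and 213 units, and *Bcl6* and *Zfp366* could not be ordered.

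Of the regulators of other dendritic fates, *Irf4*, *Zeb2*, *Klf4* and *Tcf4* lay in the lower part of this list. *Notch2*, which the paper names for cDC2s, lay above all of these by coding length. *Irf4*, the IRF of cDC2s, was at 16.3 and 18.8 CPM, *Zeb2*, a repressor that favours pDCs and cDC2s, at 18.5 and 25.9 CPM, and *Klf4*, needed for a cDC2 subset, at 46.4 and 39.0 CPM. *Tcf4*, the E protein E2-2 of pDCs, was at 105 and 120.0 CPM. On the length-scaled level *Tcf4*, *Klf4*, *Irf4* and *Zeb2* had 59.1, 32.2, 14.1 and 6.39 units, in that order but for *Tcf4* and *Klf4*, which changed places per kb of transcript. *Nfil3*, a bZIP factor that acts early in cDC1 specification, was at 6.32 and 4.41 CPM and, with 4.23 units, lowest by coding length, though per kb of transcript *Zeb2* lay below it. *Notch2*, a receptor that shapes splenic cDC subsets, was at 554 and 488 CPM, and *Relb*, an NF-κB subunit, at 51.2 and 62.0 CPM.

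Among the 9 IRF factors the order was led by *Irf8* and, at a distance, *Irf5* and *Irf7*, which act below Toll-like receptors and overlapped each other between libraries at 355 and 349.9 units. *Irf1*, induced by interferon-γ, was at 202 and 214 CPM, *Irf2* at 190.4 and 189 CPM and *Irf9*, part of the interferon complex ISGF3, at 242 and 231 CPM. *Irf3* was at 42.5 and 48.3 CPM. *Irf8* was the highest of the family, and *Irf4* lay below each of the others given here, on coding and on transcript length alike.

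**Figure D3:**
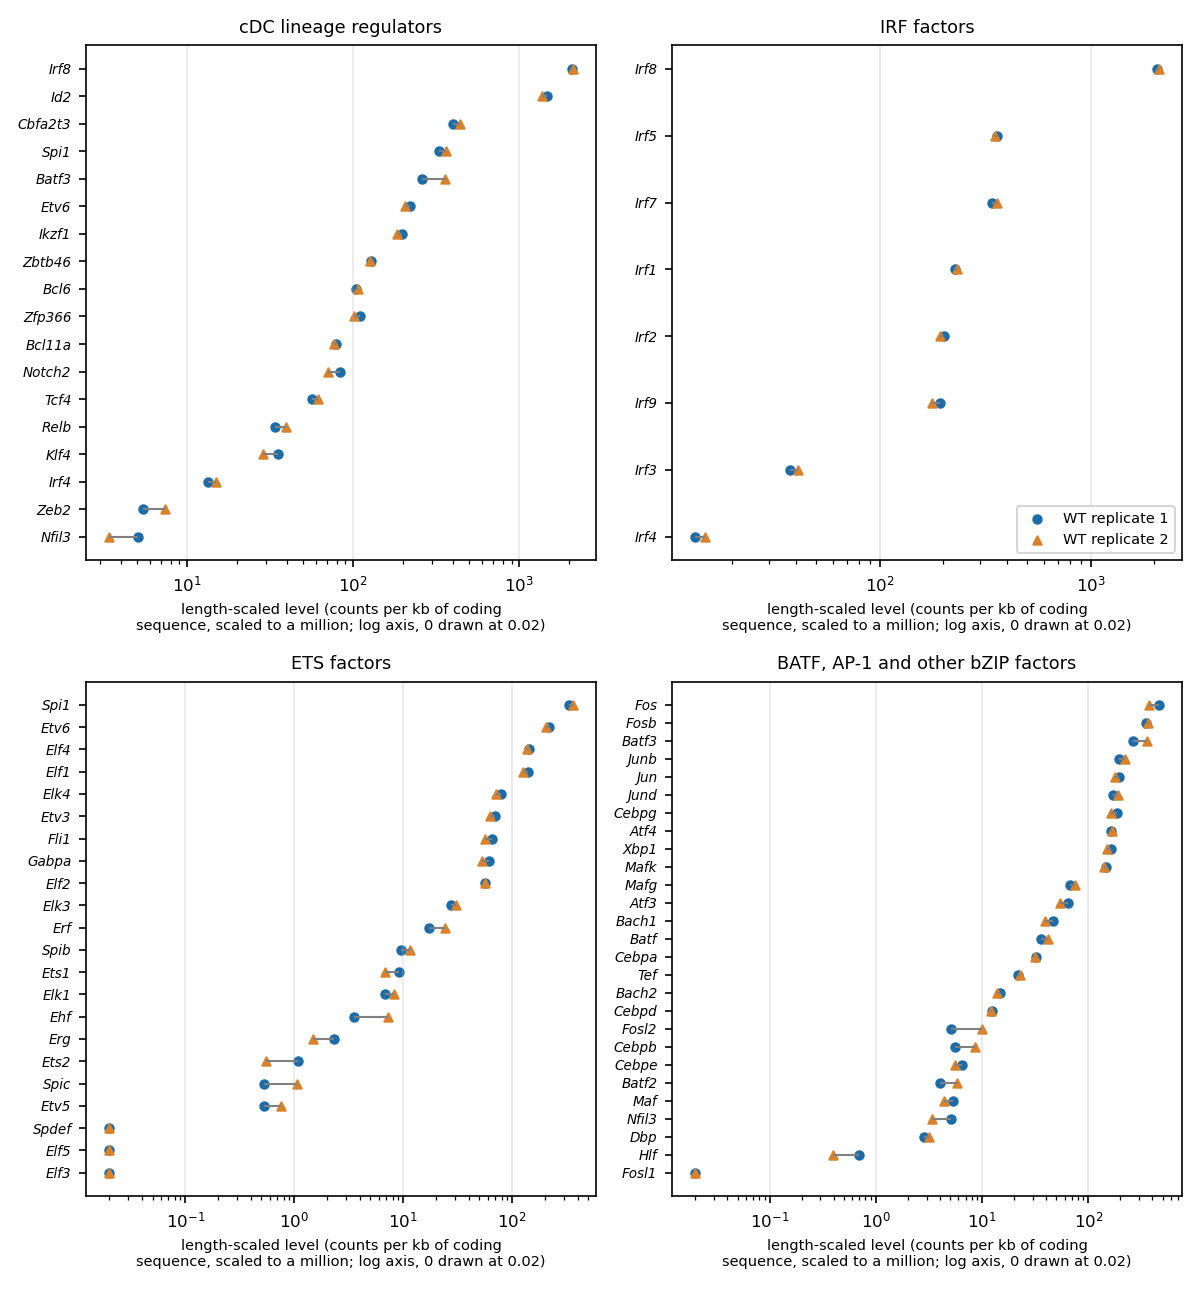
Length-scaled level (log axis) of the cDC lineage regulators and of members of the IRF, ETS and bZIP factor families, with circles for WT replicate 1 and triangles for WT replicate 2. *Irf8* at 2087 units stands above the other IRF factors, and *Spi1* at 345 units leads the ETS factors.

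Of 22 ETS factors 16 passed 1 CPM, against 50.5% of all genes with a coding length. *Spi1* was highest on both length scales and *Etv6* next by coding length. *Spib*, the PU.1 relative of pDCs and B cells, was at 7.28 and 9.21 CPM and *Spic*, of red pulp macrophages, at 0.343 and 0.724 CPM. *Elf1* was at 230.5 and 214 CPM and *Elf4* at 252 and 252 CPM, and these could not be ordered. *Elf3*, *Elf5* and *Spdef*, epithelial members, had 0 counts in both libraries.

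Of 28 bZIP factors 25 passed 1 CPM, against 50.5% of all genes with a coding length. *Fos* led with 473 and 399 CPM, and *Fosb*, another immediate-early gene that tissue handling can induce, was at 322 and 345 CPM. *Batf3*, at 309 units, overlapped *Fosb*. *Batf*, the relative that can replace BATF3, was at 12.0 and 14.5 CPM (38.5 units) and *Batf2* at 3.02 and 4.54 CPM (4.94 units). *Junb*, *Jun* and *Jund*, the partners of BATF proteins, were at 208, 185 and 180.4 units.

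In the Id, E-protein and bHLH list, *Id2* was followed by *Mycl*, the MYC relative that supports cDC1 growth, at 395 and 413 CPM, and by *Max*, the partner of MYC proteins, at 155 and 169 CPM. *Myc* itself was at 36.5 and 33.0 CPM and *Mycn* at 0.481 and 0.527 CPM. *Id3* was at 6.59 and 6.12 CPM and *Id1* at 0.755 and 0.592 CPM, so *Id2* with 1420.0 length-scaled units stood far above *Id3* with 19.4. *Tcf3* and *Tcf12*, the other E proteins, were at 43.5 and 54.4 CPM and 47.7 and 43.9 CPM. The zinc finger list was led by *Klf6*, an immediate-early factor, at 373 and 332 CPM. *Zfp36l1*, which destabilises mRNAs, was at 194 and 207 CPM, and *Klf2*, which keeps lymphocytes quiescent, was at 119 and 132 CPM. *Gata1*, *Gata3* and *Klf1* did not reach 1 CPM.

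Of 26 RUNX, STAT, NF-κB and nuclear receptor genes 25 passed 1 CPM. *Cbfb*, the partner of RUNX proteins, was at 168 and 167 CPM, and *Stat2*, which acts below type I interferon, at 424 and 463 CPM. *Stat3*, which acts below FLT3, was at 275 and 265 CPM, and *Stat5a* and *Stat5b*, which act below GM-CSF, were at 55.5 and 54.2 CPM and 66.4 and 67.4 CPM. *Runx1* and *Runx3*, haematopoietic TFs, were at 102 and 108 CPM and 91.9 and 107 CPM. *Nr1h3*, which encodes LXRα of macrophages, was at 0.275 and 0.395 CPM. In the homeobox, LIM, MYB, SOX, TCF and FOX list *Lmo4*, a LIM-only protein, was highest by coding length, at 91.1 and 99.8 CPM, and *Mef2c*, a TF linked to dendritic cell fate, was at 88.5 and 86.9 CPM. All 29 chromatin and co-regulator genes passed 1 CPM, and after *Cbfa2t3* the remodeller *Chd4* was next, at 523 and 564 CPM. *Topbp1*, the gene floxed in the study's knockout mice, was at 75.7 and 75.2 CPM, rank 5963. *Zbtb17*, which encodes the zinc finger factor MIZ-1, was at 35.4 and 35.4 CPM.

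To show the DNA beside these levels, the promoters of the lineage genes were searched on both strands for 3 motifs in 300 bases around each RefSeq start (GRCm38.p6, 250 before to 50 after): GGAA and GAAA spaced by 2 bases, which an ETS factor and an IRF can bind together, GAAA and GAAA spaced by 2 bases, which IRFs bind, and GAGGAAG, the PU.1 core. GAGGAAG itself holds GGAA, so it can overlap the first motif. Among all 32286 promoters of 26514 genes the motifs were in 2.71%, 3.46% and 13.6%. Genes at 1 CPM or more in both libraries held them in 2.52%, 3.33% and 13.9% of 11487 promoters, and the others in 2.81%, 3.53% and 13.4% of 20799. The shares of expressed and other genes lay close together. For the cDC1 list 17 genes matched the promoter table, with 18 promoters, of which 1, 2 and 4 held the motifs in that order. For the cDC regulators 14 genes matched, with 21 promoters, of which 1, 1 and 6 did; promoters of 1 gene can overlap. The 250 bases before the start are shown, 5′ to 3′ on the gene's strand, for 6 of the gate, regulator and cDC1 genes that held a motif there, picked by hand after the matches were seen, with motif bases in capitals. GAGGAAG was also in this stretch for *Zeb2*, *Cbfa2t3*, *Btla*, *Gcsam*, *Cxcr3*, *Klrb1c*, another start of *Bcl6* and an overlapping start of *Kit*, which are not printed.
Batf3 (chr1:191098164-191098413, + strand): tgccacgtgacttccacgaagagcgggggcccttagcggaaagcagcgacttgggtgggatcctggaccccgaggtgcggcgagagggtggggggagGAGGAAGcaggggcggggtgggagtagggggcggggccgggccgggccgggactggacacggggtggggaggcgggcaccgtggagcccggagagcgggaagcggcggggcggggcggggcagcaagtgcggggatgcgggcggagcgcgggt
Bcl6 (chr16:23981284-23981533, - strand): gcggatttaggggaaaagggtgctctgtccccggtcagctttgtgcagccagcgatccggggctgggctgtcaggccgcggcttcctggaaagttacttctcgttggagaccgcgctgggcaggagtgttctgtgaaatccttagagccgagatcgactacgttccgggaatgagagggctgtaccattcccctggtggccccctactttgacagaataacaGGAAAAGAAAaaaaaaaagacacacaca
Cd8a (chr6:71373177-71373426, + strand): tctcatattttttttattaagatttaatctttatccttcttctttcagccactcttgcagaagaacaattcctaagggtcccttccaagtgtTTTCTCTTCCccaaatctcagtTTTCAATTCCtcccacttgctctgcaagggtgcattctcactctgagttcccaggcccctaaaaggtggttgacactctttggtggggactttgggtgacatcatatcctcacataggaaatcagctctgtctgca
Tlr11 (chr14:50357664-50357913, + strand): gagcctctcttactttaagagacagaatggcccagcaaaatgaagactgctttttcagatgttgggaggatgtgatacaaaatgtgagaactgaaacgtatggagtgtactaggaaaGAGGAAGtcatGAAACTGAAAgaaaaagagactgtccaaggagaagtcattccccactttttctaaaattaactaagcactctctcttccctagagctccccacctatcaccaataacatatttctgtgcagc
Ifi205 (chr1:174031756-174032005, - strand): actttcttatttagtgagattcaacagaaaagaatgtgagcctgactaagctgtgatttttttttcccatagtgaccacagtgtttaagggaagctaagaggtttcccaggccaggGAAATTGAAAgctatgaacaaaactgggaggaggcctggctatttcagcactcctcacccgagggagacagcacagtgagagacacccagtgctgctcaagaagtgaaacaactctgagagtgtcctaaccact
Kit (chr5:75574737-75574986, + strand): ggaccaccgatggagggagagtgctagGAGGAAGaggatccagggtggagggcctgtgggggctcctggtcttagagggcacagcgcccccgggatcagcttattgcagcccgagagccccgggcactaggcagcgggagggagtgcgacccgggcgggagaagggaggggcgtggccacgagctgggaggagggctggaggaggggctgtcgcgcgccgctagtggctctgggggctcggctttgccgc
*Cd8a* held the ETS-IRF spacing in 2 places on the opposite strand, so its capitals read as the reverse complement. *Bcl6* held it once in the promoter of 1 of its starts, on the gene's own strand. *Tlr11* held GAGGAAG and, 4 bases on, the IRF motif. *Ifi205* held the IRF motif, and *Batf3* and *Kit* held GAGGAAG. A match is a stretch of letters and not a measured binding site. None of the 3 letter patterns was in the windows of *Irf8*, *Id2*, *Zbtb46* and *Flt3*, and *Cd24a* was not matched.

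Of 43 cytokine receptor genes 35 passed 1 CPM. *Ifngr1*, the ligand-binding chain of the interferon-γ receptor, led with 737 and 714 CPM, followed by *Il10ra*, the receptor of the anti-inflammatory IL-10, at 407 and 394 CPM, which overlapped *Flt3* on the length-scaled level and lay below it per kb of transcript. *Csf2ra*, the α chain of the GM-CSF receptor, was at 190.2 and 248 CPM, 1.30-fold higher in replicate 2 (1.24 to 1.37), and *Csf2rb*, its signalling chain, at 170.1 and 191 CPM. *Ifnar1* and *Ifnar2*, which bind type I interferons, were at 145 and 153 CPM and 129 and 121 CPM. Receptors used by other lineages lay far below *Flt3* and *Kit* on the length-scaled level, *Csf1r* at 7.68, *Csf3r* at 5.11 and *Il7r* at 2.66 units. *Csf1r*, the M-CSF receptor of monocytes, was at 18.9 and 22.5 CPM, *Csf3r*, the G-CSF receptor, at 11.9 and 11.6 CPM and *Il7r*, of lymphoid progenitors, at 3.50 and 3.22 CPM. *Epor*, the erythropoietin receptor, had at most 2 counts in a library.

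Among chemokine and homing receptors *Xcr1* and *Ccr2* stood out, with 786 and 477 length-scaled units, and *Cxcr3* was next with 61.7. Of the list, 20 of 31 passed 1 CPM. *Cxcr4*, the marrow retention receptor, was at 39.2 and 34.5 CPM, and *Ccr7*, which takes mature dendritic cells to T cell zones, at 14.1 and 18.4 CPM. *Gpr183*, which positions splenic dendritic cells, was at 12.1 and 13.1 CPM and *S1pr1*, the egress receptor, at 1.30 and 0.856 CPM.

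Of the 18 Toll-like receptor genes and chaperones 16 passed 1 CPM. *Unc93b1*, which carries the endosomal receptors, was at 909 and 991 CPM, and *Ly86*, which binds the receptor homologue CD180, at 125 and 114 CPM. *Tlr11*, which with TLR12 senses profilin of parasites, was at 435 and 419 CPM, *Tlr12* at 104 and 119.5 CPM, and *Tlr3*, the sensor of double-stranded RNA, at 405 and 419 CPM. *Tlr13*, the sensor of bacterial ribosomal RNA, was at 161 and 150.1 CPM. Receptors of the cell surface followed, *Tlr2* at 38.2 and 35.6 CPM (17.1 units), *Tlr4*, of lipopolysaccharide, at 28.1 and 22.3 CPM, and *Tlr5*, of flagellin, at 0.687 and 0.658 CPM (0.280 units). *Tlr7*, which cDC1s are known to lack, was at 2.27 and 4.54 CPM, 2.00-fold higher in replicate 2 (1.31 to 3.13). On the length-scaled level *Tlr11* and *Tlr3* overlapped at 167 and 165 units and both lay above every other Toll-like receptor, per kb of coding sequence and of transcript.

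**Figure D4:**
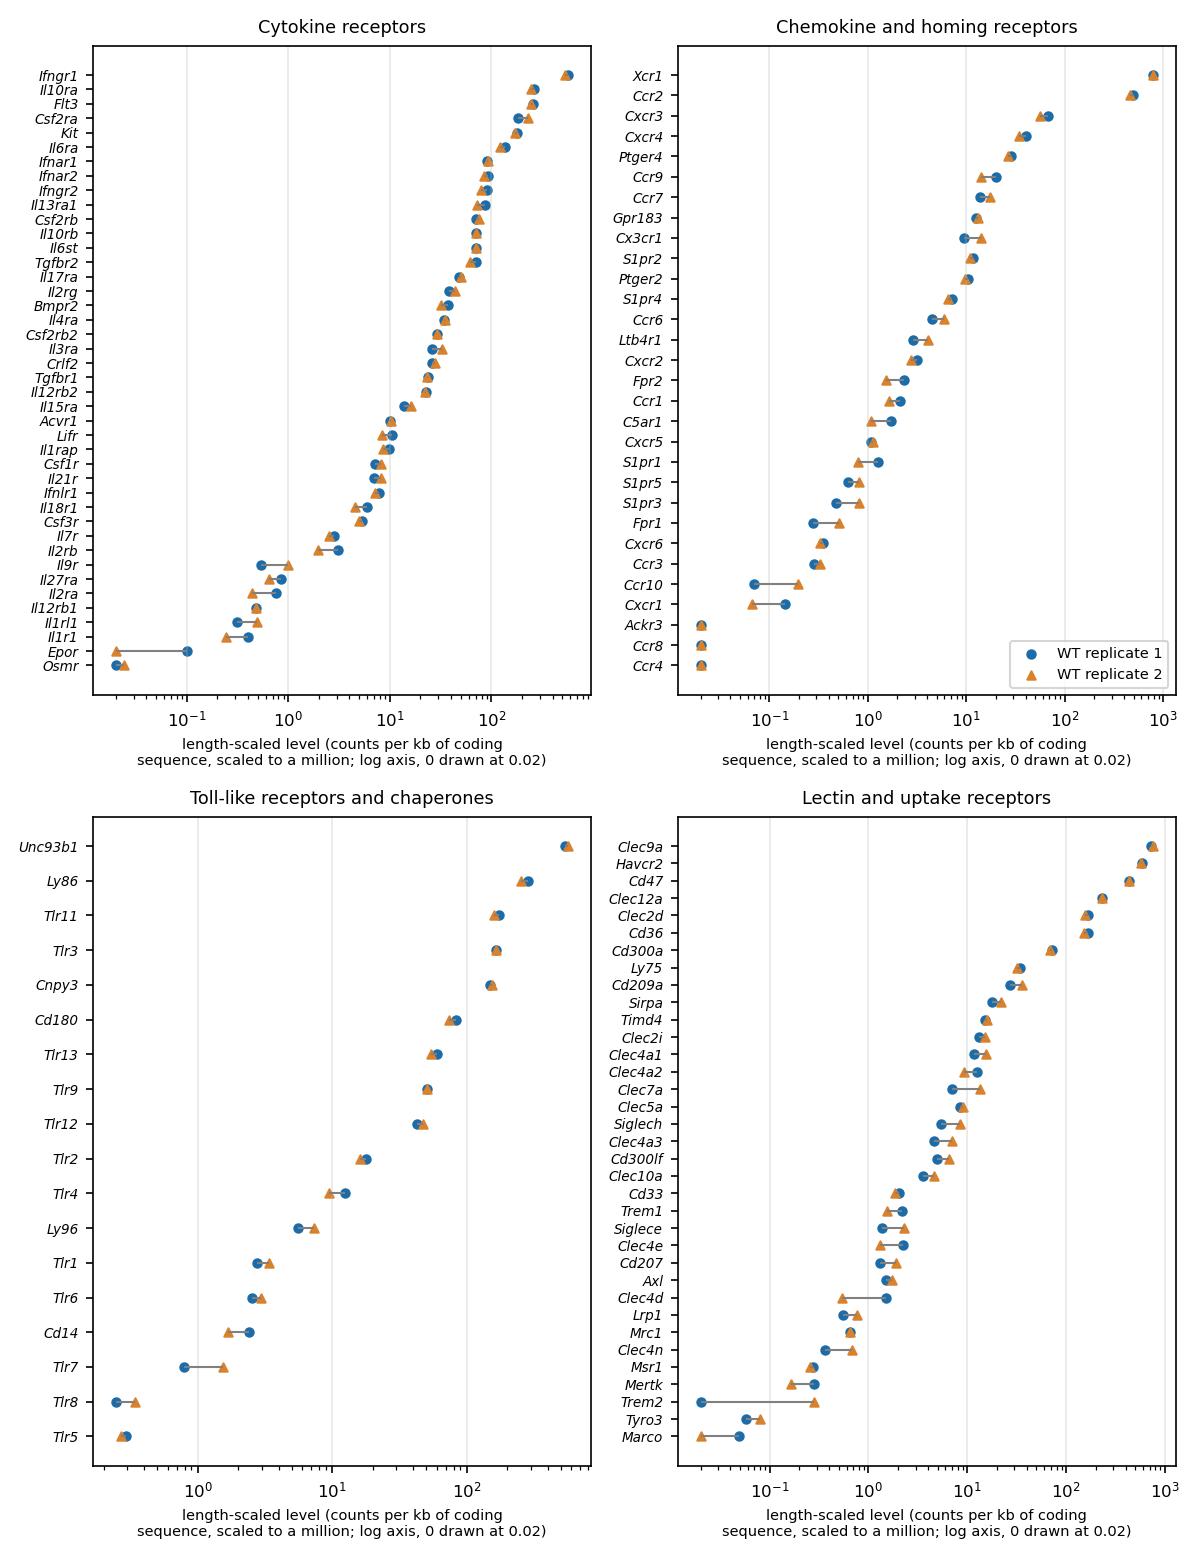
Length-scaled level (log axis) of members of 4 lists, cytokine receptors, chemokine and homing receptors, Toll-like receptors with their chaperones, and lectin and uptake receptors, with circles for WT replicate 1 and triangles for WT replicate 2. *Ifngr1*, *Xcr1*, *Unc93b1* and *Clec9a* head their panels at 553, 786, 557 and 737 units, the last of them below *Havcr2* per kb of transcript.

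Lectin and uptake receptors were led by *Clec9a* and *Havcr2*, the TIM-3 receptor that restrains cDC1s, at 449 and 452 CPM, and per kb of transcript the order of the pair was reversed. *Clec12a*, an inhibitory lectin, was at 168 and 172 CPM, and *Cd47*, the ligand that blocks phagocytosis by SIRPα-bearing cells, at 399 and 411 CPM. *Mrc1*, *Msr1* and *Marco*, scavenger receptors of macrophages, were at 0.645, 0.267 and 0.0245 units. *Clec7a*, the β-glucan receptor dectin-1, was at 4.67 and 9.28 CPM, 1.99-fold higher in replicate 2. In the Fc receptor list *Fcer1g*, the common signalling chain, was at 86.7 and 92.5 CPM, *Fcgrt*, the neonatal Fc receptor, at 139.6 and 161 CPM and *Fcgr2b*, the inhibitory receptor, at 42.2 and 48.3 CPM, while *Fcgr3* and *Fcgr4*, activating receptors for IgG, were at 8.08 and 3.22 units.

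Of the adhesion genes 26 of 32 passed 1 CPM. They included *Itga4*, the α4 integrin, at 1261 and 1099 CPM, and *Itgb7*, its β7 partner, at 364 and 369 CPM. *Itgb2* and *Itgal*, which form LFA-1, were at 337 and 360.5 CPM and 356 and 343 CPM. *Selplg*, the ligand of P-selectin, was at 805 and 832 CPM. Among co-stimulatory and inhibitory genes, of which 21 of 26 passed, *Cd52*, a short glycoprotein of leukocytes, led at 790.0 and 891 CPM, and *Cd86*, a ligand of CD28, was at 266 and 265 CPM against 24.8 and 24.6 CPM for *Cd80*, with 312 and 29.3 length-scaled units. *Cd40*, which receives help from T cells, was at 31.1 and 34.3 CPM, *Cd83* at 103 and 96.5 CPM and *Cd274*, which encodes PD-L1, at 8.58 and 11.5 CPM. *Slamf7*, a self-ligand receptor, was at 558 and 571 CPM. *Cd70* had 0 counts. In the TNF receptor family 13 of 20 passed, and *Tnfrsf14*, the partner of BTLA, was at 148 and 169 CPM and *Tnfrsf1a*, the main TNF receptor, at 103 and 113 CPM.

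Antigen presentation genes were detected throughout. All 13 MHC class II genes passed 1 CPM, against 50.5% of all genes with a coding length. Together the 13 held 3.91% of counts in replicate 1 and 4.18% in replicate 2. *Ciita*, the master activator of class II, was at 671 and 629.7 CPM, *Ctss*, which trims the invariant chain, at 634 and 651 CPM, and *H2-DMa*, which loads peptides, at 426 and 431 CPM. *H2-Oa* and *H2-Ob*, which restrain loading, were at 106 and 110.0 CPM and 266 and 279 CPM. All 18 class I genes passed as well. *H2-D1* and *H2-K1*, the heavy chains, were at 1410.3 and 1428 CPM and 1056 and 1239 CPM, *Tap1*, the peptide transporter, at 486 and 498 CPM, and *Nlrc5*, the class I activator, at 169.6 and 183 CPM. The heavy chains share much sequence with other class I genes, so how their reads were split is uncertain.

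Of the 33 genes of FLT3 signalling 32 passed 1 CPM, against 50.5% of all genes with a coding length. The adaptor *Grb2* was at 257 and 264 CPM and the kinases *Lyn*, *Jak2* and *Pik3cd* at 571 and 538 CPM, 521 and 513 CPM and 307 and 328 CPM. *Ptpn6*, the phosphatase SHP-1, was at 347 and 409 CPM, and *Cbl*, which marks receptors for degradation, at 499.6 and 450.1 CPM. The feedback genes *Cish*, *Socs1*, *Socs2* and *Socs3* lay lower on the length-scaled level, between 0.532 units for *Cish* and 12.3 for *Socs3*. *Cbl*, by contrast, had 189 units. *Socs2* was at 3.50 and 5.53 CPM, *Socs1* at 4.53 and 3.09 CPM, *Socs3* at 7.55 and 7.63 CPM and *Cish* at 0.549 and 0.197 CPM. *Flt3l*, the ligand itself, was at 11.7 and 13.5 CPM. In the Notch list *Rbpj*, the nuclear partner of Notch, was at 483 and 463 CPM, and the targets *Hes1* and *Dtx1* were at 5.04 and 0.759 length-scaled units.

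All 30 cell cycle genes were detected above 1 CPM, against 50.5% of all genes with a coding length. Of the 30, 7 lay above the median length-scaled level of expressed genes, a share near the 25.2% of all genes with a coding length. The list's median was 13.7 units. *Mki67*, a marker of cycling cells, was at 210.3 and 201 CPM, *Top2a*, of S and G2 phases, at 98.1 and 104 CPM and *Pcna*, the replication clamp, at 87.6 and 88.5 CPM. *Ccnd1*, a D-type cyclin, was at 246 and 268 CPM and its relatives *Ccnd3* and *Ccnd2* at 132 and 24.9 units beside its 316. *Cdkn1b*, the inhibitor p27, was at 84.8 and 90.8 CPM and *Cdkn1a*, p21, at 5.56 and 7.31 CPM. In the BCL2 family *Mcl1*, a survival factor, was at 858 and 885 CPM, *Bcl2* at 24.7 and 25.4 CPM and *Bcl2l1*, which encodes BCL-XL, at 9.00 and 9.67 CPM. The pro-death BH3 gene *Pmaip1*, NOXA, which MCL1 binds, was at 167 and 193 CPM and *Bak1*, an effector of cell death, at 195 and 233 CPM.

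Of the 30 cytokine and chemokine genes 18 passed 1 CPM. *Cxcl9*, which attracts CXCR3+ T cells, was at 234 and 219.9 CPM and *Tgfb1* at 245 and 287 CPM, and these led the list on the length-scaled level, at 654 and 248 units, in the opposite order per kb of transcript. *Il12b*, the p40 subunit that cDC1s make on activation, was at 10.5 and 12.5 CPM, *Il12a* at 0.412 and 0.132 CPM and *Il15* at 11.6 and 13.6 CPM. *Il10*, *Il1a*, *Ifnb1* and *Csf2* had 0 counts in both libraries, where a floor of 3 counts corresponds to 0.206 CPM in replicate 1 and 0.197 in replicate 2.

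The 2 libraries were set beside each other gene by gene. Among 12173 genes with at least 20 counts over both, 0.887% (108) were over 2-fold higher in replicate 1 and 1.65% (201) over 2-fold higher in replicate 2. None of the 6 markers was among them. With at least 100 counts, 7 of 10130 genes were over 2-fold higher in replicate 1 and 25 in replicate 2. Over expressed genes the absolute log2 ratio had a median of 0.13. The libraries were not duplicates, with a mean chi-square of 14.3 per gene. Symbols with very large counts, such as *Gm26917* with 562252 and 335626, weigh heavily on this mean, so it does not describe a typical gene.

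Among genes with at least 100 counts, *Sagsin1* had 120 counts in replicate 1 and 0 in replicate 2, and *Snord3b2*, a small nucleolar RNA, 0 and 144. With 0 set to a floor of 3 counts per library these were at least 41.7-fold and 46.0-fold apart, and the lower 95% exact binomial limits of the ratios were 33.4 and 36.9. *Fam220a* followed with 4 and 168 counts. Further down, *H2ac23*, a histone gene, *Zfand4*, *Gm14279*, *Gapt*, *Slc19a1*, *Stk26*, *Dpy19l3*, *Prelid2* and the mitochondrial leucyl-tRNA synthetase gene *Lars2* were higher in replicate 1 by 1.93-fold to 2.67-fold. *Lars2* stood out by its level, at 2107 and 1028 CPM. *Gm26917*, the most abundant symbol, was at 38612 and 22089.6 CPM, and the mitochondrial rRNA *mt-Rnr2* at 8755 and 4788, so these moved the same way. With the library total taken without *Gm26917*, *Lars2* and the mitochondrial rRNAs, a setting chosen after seeing the data, 298 genes were over 2-fold apart instead of 309, and *Irf8* was at 2544 instead of 2437 CPM. Higher in replicate 2 were *Ace*, *C130026I21Rik*, *Sts*, *Gm53191*, *Cd99*, *Zfp579* and *Gm8624*, by 2.22-fold to 3.35-fold, and *Alb*, the liver's albumin, by 6.80-fold (4.68 to 10.2). Other liver transcripts moved with it, with *Apoa1* at 7 and 70 counts and *Ttr* at 9 and 35.

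**Figure D5:**
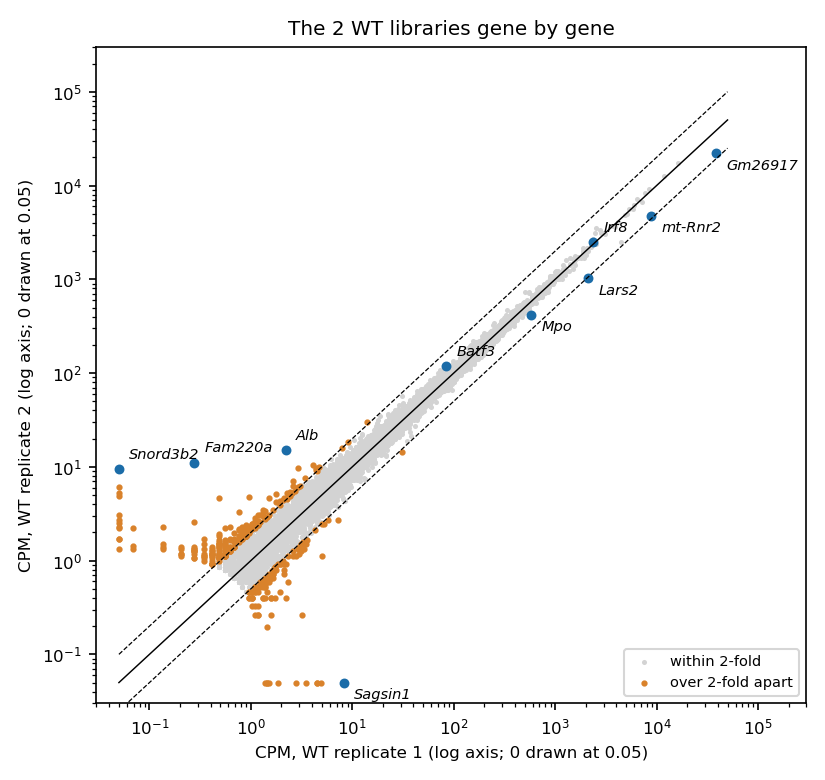
CPM of each gene with at least 20 counts over both libraries in WT replicate 1 (horizontal, log axis) and WT replicate 2 (vertical, log axis), with a solid line of equality, dashed lines 2-fold from it, orange points for the 309 genes beyond them and blue points for named genes. *Irf8* lies near the line of equality, and most genes beyond the dashed lines lie at low CPM.

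Transcripts were far less stable than genes. Of 28226 transcript entries with at least 20 counts in a library, 6439 had 0 in the other, whereas of 11501 gene sums 23 did. No level of a single transcript is given here for that reason.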

How the data were processed

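Total RNA of CD24+ EPs from 2 WT spleen samples was sequenced with the CORALL RNA-seq V2 kit. The deposited values are whole-number read counts per transcript, made by the authors. The submitters' processing notes name fastp, STAR, Salmon, GATK and the build GRCm39, without versions or roles, and whether molecular identifiers were used is not given in the sources used here. The labels and the paper name different RNA extraction reagents.

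Counts were summed per symbol and scaled to CPM of 14561583 and 15193831 counts. Coding and transcript lengths were the longest per symbol in GENCODE (GRCm38). Lengths of single transcripts, planned first, covered 74.9% of counts, under the 80% required, so coding length (91.2%) was used. A gene counted as expressed at 1 CPM in both libraries. Ratios between libraries carry 95% exact binomial intervals. These and the floor of 3 counts cover counting error only. Genes named were the 6 markers, the sort gate genes, the 20 highest per length, the 3 highest and the lineage-defining members of each list, and the 10 with the largest ratio between libraries in each direction among those with at least 100 counts. Other list members were named where their list is reported, and *Apoa1*, *Ttr*, *Gm26917* and *mt-Rnr2* after their values were seen. The members and the 39 lists were chosen with earlier results of these data known. *Dcir3*, *Ighm*, *Ighd*, *Igkc*, *Trac*, *Trbc1* and *Trbc2* were not analysed here, and neither were the 2 knockout libraries. Some list members are counted but not reported here by name or in the plots of single genes. Alternatives were other thresholds, scalings (TMM of edgeR 4.0.16 in R 4.3.3), lengths and each library alone. Python 3.11.15 with numpy 2.4.6, pandas 2.3.3, scipy 1.17.1 and matplotlib 3.10.9 was used, and the steps were tested on simulated data.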

Additional observations from a re-analysis of the deposited data

How the results depend on the processing

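Of 69 values recomputed from both libraries under other settings, 43 moved by less than the spread between the libraries or, for counts, stayed within 1.5 times. The other 26 moved further. Among 27 values of single genes 14 moved further. The number of genes over 2-fold apart between the libraries was 309, and it became 941 at 1.5-fold, 32 with at least 100 counts, 4565 with no minimum and 11008 with each transcript taken as its own feature. It was 296 with TMM library sizes, split 122 higher in replicate 1 and 174 higher in replicate 2 against 108 and 201, and 281 after thinning to equal depth. The median level of expressed coding genes was 30.8 CPM, 31.8 CPM with the library total taken without mitochondrially encoded genes and 32.1 CPM without *Gm26917*, *Lars2* and the mitochondrial rRNAs, a setting chosen after seeing the data. The median rank of the cDC1 list was 303, against 377 per kb of transcript and 329 by CPM without length. The ETS-IRF motif was in 2.52% of expressed promoters and in 2.02% when the bases before the start alone were searched. Leaving out 1 library gave 11578 to 11645 expressed genes and a median level of 30.5 to 31.3 CPM, and a mean of 2 values always lies within their SD of either value, so the levels of single genes without 1 library say nothing about stability. No paired analysis was possible because the 2 libraries form 1 group and no groups were compared. A floor of 3 counts, 0.206 and 0.197 CPM, limits what can be said of genes at 0.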

Other observations

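Of 12073 symbols that RefSeq calls long noncoding, 420 reached 1 CPM in both libraries, against 28.2% of all 40213 symbols. The class held 0.939% and 0.973% of counts. *Gm26917*, which alone held 3.86% and 2.21% of counts, was not in this class. *Malat1*, a nuclear RNA of most cells, was at 4160 and 4079 CPM, and *Neat1*, the scaffold of paraspeckles, at 55.3 and 76.9 CPM, higher in replicate 2. *Gas5*, the host of small nucleolar RNAs, was at 148 and 162 CPM, and the imprinted *Meg3* had 3 counts in each library.

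Among the promoters of other lists, GAGGAAG was found in 10 of 18 for the neutrophil genes and 14 of 35 for the lectin and uptake receptors, beside 13.6% of all promoters. The spacing of GGAA and GAAA by 2 bases was in 7 of 35 promoters of the lectin and uptake receptors, those of *Cd209a*, *Clec2i*, *Clec4a1*, *Clec7a* and *Timd4*, beside 2.71% of all promoters. The pair of GAAA was in 4 of 17 promoters of the MHC class I list, those of *B2m*, *Erap1*, *H2-T23* and *Psme1*, beside 3.46% of all promoters. Promoters of 1 gene can overlap, and these lists were picked out after their counts were seen.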
